A study of Mus musculus with 19 samples.

Results

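The galectin family was followed in sorted myeloid progenitors of the mouse bone marrow. Of 6 listed genes (Lgals1, Lgals3, Lgals3bp, Lgals4, Lgals8 and Lgals9) 5 were measured, out of 15781 genes in all. The members were chosen from their own levels: each was summarised over the probe sets annotated to it alone, as a mean log2 intensity per array, across 6 groups of genotype and cell type. Those levels and their differences are therefore given as a description, with no test. Lgals1 has no probe set under its own symbol in the annotation used and is not analysed here.

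RNA was measured on Affymetrix mouse exon arrays from 20 ng of total RNA per sample, in 19 samples. The groups were PR+/- Dnmt3a-/- granulocyte-monocyte progenitors (GMP, 4 arrays), PR+/- GMP (2), Dnmt3a-/- GMP (3), wild-type GMP (4), Dnmt3a-/- common myeloid progenitors (CMP, 3) and wild-type CMP (3). By the title of the series, PR is taken to be PML-RARA, the fusion of acute promyelocytic leukaemia. Dnmt3a encodes a DNA methyltransferase that places new methylation marks, and both alleles are lost in the 3 groups named Dnmt3a-/-. The wild-type and Dnmt3a-/- mice were C57Bl/6J; the labels give no strain for the PR+/- mice and no age, and do not say what drives the fusion or whether replicates are separate animals. The labels name no batch. The titles of the PR+/- arrays end in a replicate number and those of all others in a longer number. The longer numbers fall in separate ranges for the wild-type and the Dnmt3a-/- arrays. Genotype and any processing set that follows these numbers therefore cannot be told apart. Whether these sets of arrays were processed together is not stated.

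Galectins are lectins that bind beta-galactosides on glycoproteins and glycolipids. They are made in the cytosol, leave the cell without a classical signal peptide, and then crosslink receptors at the surface, while inside the cell some of them mark damaged endosomes and lysosomes. Galectin-3 (Lgals3) is the chimeric member, with a single carbohydrate-recognition domain and a tail through which it forms oligomers, and macrophages and other myeloid cells are known for it. Galectin-4, galectin-8 and galectin-9 are tandem-repeat members with a pair of such domains, and Lgals3bp is a secreted, heavily glycosylated binding partner of galectin-3 and not a lectin of the family itself.

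The promoters of Lgals3 and Lgals9 are shown because these members differed most among the groups. The windows run from 250 bases before to 50 after a start listed in RefSeq on build GRCm38.p6; 5 of the 6 members matched a window. For Lgals3, Lgals3bp and Lgals9 that start is the outer end of the gene in the RefSeq gene table, while for Lgals4 and Lgals8 it lies 672 and 3239 bases inside the gene. The Lgals3 window is chr14:47373610-47373909 on the plus strand, with its CpG dinucleotides in capitals, the pairs that a DNA methyltransferase can modify. The Lgals9 window is chr11:78984875-78985174 on the minus strand, with capitals on the matches to an interferon-response motif, GAAA, any 2 bases and GAAA, read on either strand.
Lgals3: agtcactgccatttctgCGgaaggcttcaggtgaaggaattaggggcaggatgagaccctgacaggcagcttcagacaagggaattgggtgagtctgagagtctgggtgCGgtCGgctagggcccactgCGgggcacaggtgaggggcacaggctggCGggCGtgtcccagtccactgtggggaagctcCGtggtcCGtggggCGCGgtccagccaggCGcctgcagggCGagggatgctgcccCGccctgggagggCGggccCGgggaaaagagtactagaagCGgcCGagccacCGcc
Lgals9: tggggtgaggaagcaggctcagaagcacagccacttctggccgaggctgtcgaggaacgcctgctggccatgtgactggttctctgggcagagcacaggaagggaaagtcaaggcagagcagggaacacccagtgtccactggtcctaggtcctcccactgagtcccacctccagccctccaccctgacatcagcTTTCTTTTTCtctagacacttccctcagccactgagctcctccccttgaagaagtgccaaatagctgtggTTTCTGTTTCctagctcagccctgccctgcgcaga
The Lgals3 window holds 18 CpG and is 67% G and C. Of 32851 mouse windows of this length 70.3% hold fewer CpG, with a median of 7 and a 90th percentile of 31. Of the other windows at the outer end of their gene, that of Lgals3bp holds 3 CpG and that of Lgals9 holds 4. The windows inside Lgals4 and Lgals8 hold 4 and 6 and do not show the outer ends of these genes. The interferon motif occurs at 2 places in the Lgals9 window and in 3.44% of all windows, and in no window of the other 4 members. In all, 5 motifs were counted, the CpG pair included, on both strands. GGGCGGGG, which itself holds a CpG, occurs at 1 place in the Lgals3 window and in 17.6% of all windows, while GAGGAAGT (3.20% of windows) and TGACTCA (5.20%) are in no member's window. Methylation was not measured in these samples, and the motifs were picked with the levels known.

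Arrays differed within groups, which touches several values below. Immediate early genes had mean log2 levels of 7.91 to 9.11 in wild-type CMP replicate 1, wild-type GMP replicates 1 and 2 and PR+/- Dnmt3a-/- replicates 1 and 2, against 6.04 to 7.39 on the other 14 arrays. The wild-type arrays high in these genes carry consecutive title numbers, apart from those of the other wild-type arrays. Y-linked RNA was low, at most 2.91, on all 6 arrays that are Dnmt3a-/- without PR. Both states occurred among the wild-type and among the PR+/- Dnmt3a-/- arrays. Of the sort markers Fcgr3, an Fc receptor used to separate these populations, went with the labels. Its mean levels were 9.16 to 9.98 in the 4 GMP groups, and 6.45 and 7.10 in Dnmt3a-/- and wild-type CMP. A list of 9 progenitor and sort markers averaged 7.79 to 8.11 in Dnmt3a-/- CMP, against 8.33 to 8.65 in wild-type CMP. Of these 9 genes 3 were called lower there and 0 higher, where 1.28% of all genes were called in either direction. The granule genes on the list, Mpo, Prtn3 and Ctsg, stood at 11.66, 9.15 and 9.58 in Dnmt3a-/- CMP, against 12.52, 10.69 and 10.77 in wild-type CMP. Of its surface markers Kit stood at 10.08, against 9.80, and Cd34 at 9.59, against 10.30. Dnmt3a itself differed by -1.04 ± 0.14 (SE) between Dnmt3a-/- and wild-type CMP and by -1.31 ± 0.13 in GMP (limma adjusted p = 0.00198 and 3.87e-04).

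All 5 members were above background, taken as the median log2 level of germline genes, 3.43. The 43 probe sets of the members all had means over the 19 arrays above it. This cut is low: of 15 stromal and endothelial genes only 3 to 5 were below it in each group. A level above it does not by itself show that a gene is expressed in these cells. Lgals9 lay at the 98.8th percentile of all genes by mean level, Lgals3bp at the 91.9th, Lgals3 at the 90.3rd, Lgals8 at the 85.5th and Lgals4 at the 56.8th. These are probe brightness and do not rank the RNAs against each other. The group means spanned 1.57 on the log2 scale for Lgals3, 1.16 for Lgals9 and 0.83 for Lgals3bp, but only 0.31 for Lgals8 and 0.29 for Lgals4.

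**Figure D1:**
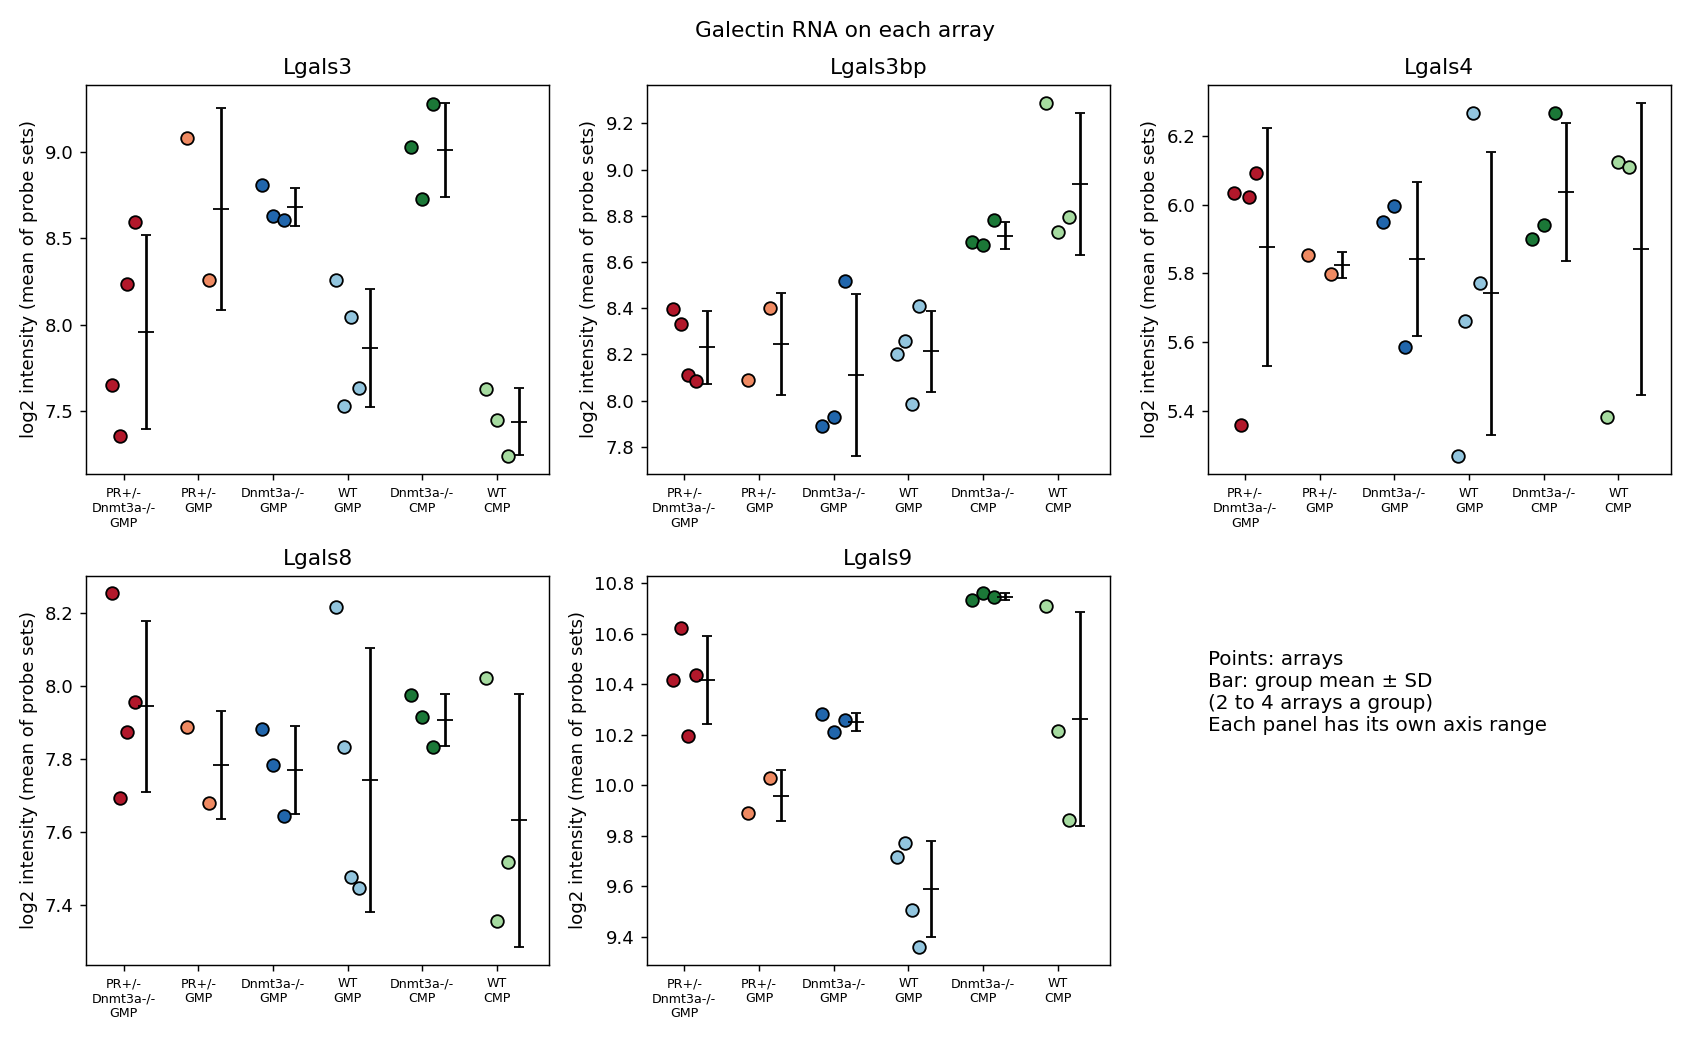
Log2 level of each measured galectin gene (vertical axis, mean of its probe sets, with its own range per panel) on every array, in the 6 groups along the horizontal axis; points are arrays and bars show the group mean ± SD. Lgals3 and Lgals9 lie above every wild-type array of the same cell type on every Dnmt3a-/- array without PR, while for Lgals4 and Lgals8 the Dnmt3a-/- and wild-type arrays overlap.

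Lgals3 was the member with the largest difference without Dnmt3a. In CMP its level was 9.03, 8.73 and 9.28 on the Dnmt3a-/- arrays, against 7.63, 7.45 and 7.24 on the wild-type arrays. Every Dnmt3a-/- array lay above every wild-type array, by more than 1 log2 unit. The means were 9.01 ± 0.27 (SD, n = 3) and 7.44 ± 0.19 (n = 3), a difference of 1.57 ± 0.20 (SE) or 2.98-fold. In a bulk sample of sorted cells, more cells that express a gene and more RNA per cell cannot be told apart.

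In GMP the Lgals3 level was 8.81, 8.63 and 8.60 on the Dnmt3a-/- arrays, against 8.26, 7.53, 8.04 and 7.63 on the wild-type arrays. The groups again did not overlap, at a smaller distance: 0.82 ± 0.19, or 1.76-fold. The Dnmt3a-/- difference in CMP exceeded that in GMP by 0.76 ± 0.28. Among all genes, the arrays of Dnmt3a-/- and wild-type did not overlap for 23.1% in CMP and 16.6% in GMP, so the lack of overlap alone is common here; 2 of the 5 members, Lgals3 and Lgals9, were so in each cell type.

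On the PR+/- background the Lgals3 mean was lower without Dnmt3a, within the spread of the arrays. The PR+/- Dnmt3a-/- GMP had 7.65, 7.36, 8.23 and 8.60, against 9.08 and 8.26 in PR+/- GMP. The groups overlapped, and the difference was -0.71 ± 0.38. Without PR+/- replicate 1 it was -0.30 and without PR+/- replicate 2 it was -1.12. It was -0.25 without the PR+/- Dnmt3a-/- replicates 1 and 2, which were high in immediate early genes, and -1.17 with the replicate number as a block. The Dnmt3a-/- difference with PR+/- minus that without it was -1.53 ± 0.44, a value given without a test.

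PR+/- GMP had a Lgals3 mean of 8.67 ± 0.58 (SD, n = 2), against 7.87 ± 0.34 (n = 4) in wild-type GMP, a difference of 0.80 ± 0.33. The lower PR+/- array, at 8.257, and the highest wild-type array, at 8.259, all but coincided. The difference was 0.39 without PR+/- replicate 1 and 1.22 without PR+/- replicate 2. Wild-type GMP lay 0.43 ± 0.19 above wild-type CMP with overlapping arrays, while Dnmt3a-/- GMP differed from Dnmt3a-/- CMP by -0.33 ± 0.20 in a fit without pairs, also with overlap. In each of the 3 pairs of Dnmt3a-/- arrays with adjacent numbers in their titles, which the labels do not call pairs, the GMP array was the lower. From low to high, the Lgals3 means were ordered wild-type CMP, wild-type GMP, PR+/- Dnmt3a-/- GMP, PR+/- GMP, Dnmt3a-/- GMP and Dnmt3a-/- CMP, and the arrays of each neighbouring pair in this order overlapped.

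Lgals9, the tandem-repeat galectin known as an interferon-induced ligand of the checkpoint receptor Havcr2, was higher without Dnmt3a in all 3 settings. In GMP it stood at 10.28, 10.21 and 10.26 on the Dnmt3a-/- arrays, against 9.72, 9.77, 9.51 and 9.36 on the wild-type arrays. The Dnmt3a-/- arrays lay close together and above all wild-type arrays, with a difference of 0.66 ± 0.17, or 1.58-fold. With the fusion, Lgals9 stood at 10.41, 10.62, 10.20 and 10.44 in PR+/- Dnmt3a-/- GMP, against 9.89 and 10.03 in PR+/- GMP. These groups did not overlap either (20.6% of all genes did not), and the difference was 0.46 ± 0.17.

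In CMP the Lgals9 level was 10.73, 10.76 and 10.75 on the Dnmt3a-/- arrays, against 10.71, 10.22 and 9.86 on the wild-type arrays. The groups did not overlap, but wild-type replicate 1, the array highest in immediate early genes, came close to the lowest Dnmt3a-/- array. The difference was 0.48 ± 0.19, was 0.71 without that array and 0.28 without wild-type replicate 3. With the Y-linked level as a covariate it was 0.83 in CMP and 1.05 in GMP. Among the wild-type arrays only CMP replicate 3 and GMP replicate 4 were low in Y-linked RNA, at 3.06 and 3.25. Each had the lowest Lgals9 level of its group, 9.86 and 9.36. In PR+/- Dnmt3a-/- GMP, outside this fit, replicate 2 was the array low in Y-linked RNA, at 3.12. It had the highest Lgals9 level of its group, 10.62. As every Dnmt3a-/- array in the fit with the covariate was low in Y-linked RNA, genotype and Y-linked level cannot be cleanly told apart.

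Lgals9 was lower in GMP than in CMP. In wild-type GMP the mean was 9.59 ± 0.19 (SD, n = 4), against 10.26 ± 0.42 (n = 3) in wild-type CMP, with no overlap and a difference of -0.67 ± 0.17. Lgals9 and Lgals3bp were the 2 of 5 members apart in this comparison, as were 13.9% of all genes. Dnmt3a-/- GMP lay -0.50 ± 0.19 from Dnmt3a-/- CMP, also without overlap. PR+/- GMP had 9.96 ± 0.10 (n = 2), above every wild-type GMP array, with a difference of 0.37 ± 0.16; 28.5% of all genes did not overlap in that comparison, where a group of 2 arrays is easily apart. The order of the means was wild-type GMP, PR+/- GMP, Dnmt3a-/- GMP, wild-type CMP, PR+/- Dnmt3a-/- GMP and Dnmt3a-/- CMP, and wild-type CMP, the most spread group, overlapped both of its neighbours. The other neighbouring pairs did not overlap.

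Lgals3bp, the galectin-3 binding glycoprotein, differed more between the cell types than between the genotypes. Wild-type GMP had 8.20, 8.26, 7.99 and 8.41, against 9.29, 8.73 and 8.79 in wild-type CMP. The arrays did not overlap, and the difference was -0.72 ± 0.18. It ranged from -0.83 to -0.55 over the alternatives run. Dnmt3a-/- GMP, at 7.89, 7.93 and 8.52, also lay below Dnmt3a-/- CMP, at 8.69, 8.67 and 8.78, by a difference of -0.60 ± 0.19. The Dnmt3a-/- differences were -0.22 ± 0.19 in CMP, -0.10 ± 0.18 in GMP and -0.01 ± 0.18 with PR+/-, each with overlapping arrays.

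Several marker lists moved between the same groups as Lgals3bp. Of 14 basophil and mast cell genes 5 were called higher and 2 lower in wild-type GMP than in wild-type CMP, and their mean level was 6.17 to 6.59 in wild-type GMP, against 5.08 to 5.77 in wild-type CMP. Of 16 megakaryocyte and platelet genes 10 were called lower, of 15 dendritic cell genes 8 and of 13 erythroid genes 6, where 4.3% of all genes were called in either direction. Across the 19 arrays, which share group structure, Lgals3bp correlated with the basophil and mast cell level at r = -0.83, with the dendritic level at 0.61 and with the megakaryocyte level at 0.57. The part of such cells in the Lgals3bp differences was not tested.

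Lgals4, which is best known from the gut epithelium, and Lgals8, which marks damaged vesicles for autophagy, had overlapping arrays in every comparison made here. The Lgals4 arrays lay between 5.36 and 6.09 in PR+/- Dnmt3a-/- GMP, 5.80 and 5.85 in PR+/- GMP, 5.58 and 6.00 in Dnmt3a-/- GMP, 5.27 and 6.27 in wild-type GMP, 5.90 and 6.27 in Dnmt3a-/- CMP and 5.38 and 6.12 in wild-type CMP. Those of Lgals8 lay between 7.69 and 8.25, 7.68 and 7.89, 7.64 and 7.88, 7.45 and 8.22, 7.83 and 7.98, and 7.36 and 8.02 in the same order of groups. The largest difference of either gene was that of Lgals8 between Dnmt3a-/- and wild-type CMP, 0.28 ± 0.21. At 2 to 4 arrays a group and standard errors of 0.19 to 0.26, smaller differences were not resolved.

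**Figure D2:**
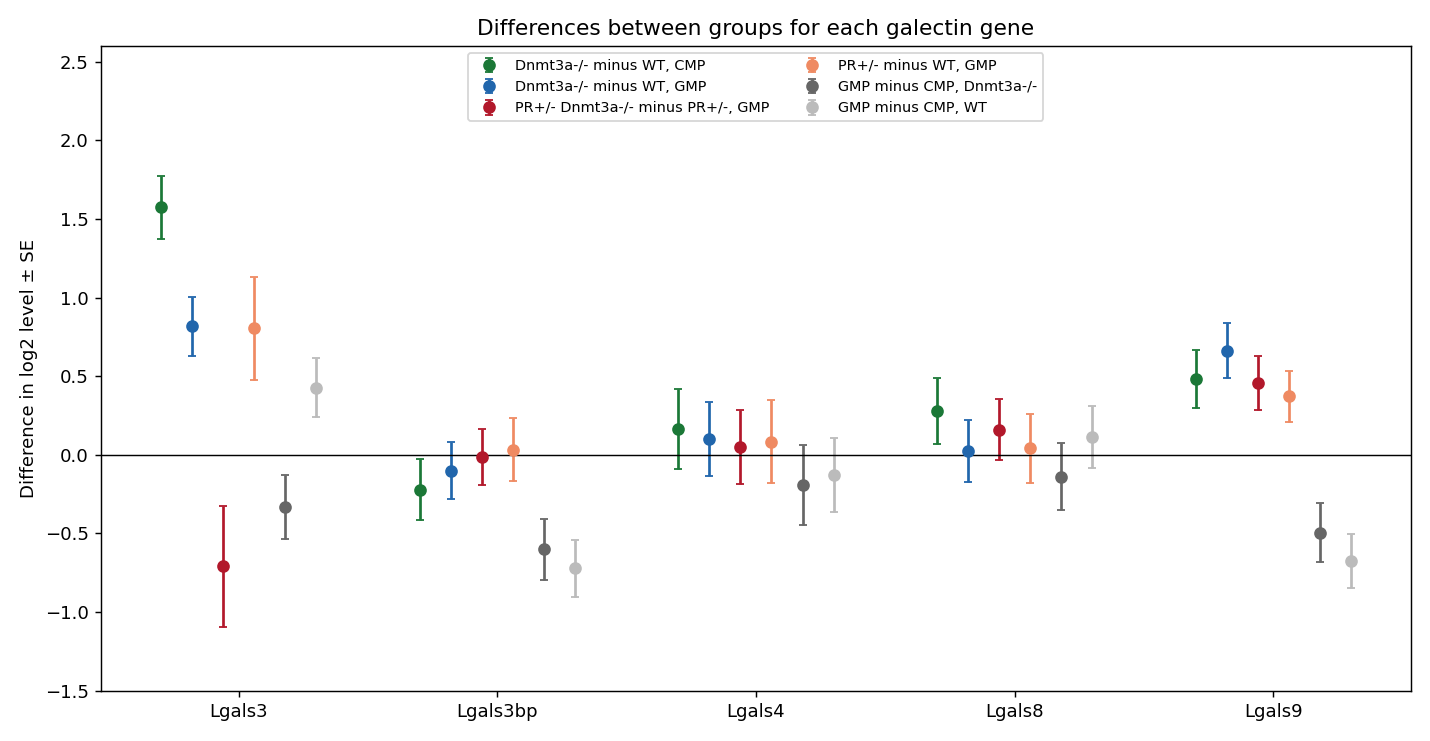
Difference in log2 level between the groups named in the key (vertical axis, points ± SE) for the 5 measured galectin genes along the horizontal axis. Lgals3 reaches 1.57 in CMP and lies below 0 on the PR+/- background, the Lgals9 differences without Dnmt3a are 0.46 to 0.66, and Lgals3bp departs from 0 in the comparisons of GMP with CMP.

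The probe sets of a gene lie along its exons, and the gene level is their mean. Their directions therefore describe that mean and are no separate evidence for it. For Lgals3 and Lgals9 most or all probe sets went the way of the mean. In CMP all 8 Lgals3 probe sets were higher on the Dnmt3a-/- arrays, 7 of them by more than 1 log2 unit, and in GMP 7 of 8. All 10 Lgals9 probe sets were higher in Dnmt3a-/- than in wild-type CMP and GMP, in PR+/- Dnmt3a-/- than in PR+/- GMP and in PR+/- than in wild-type GMP, and all 10 were lower in wild-type GMP than in wild-type CMP. All 5 Lgals3bp probe sets were lower in wild-type GMP than in wild-type CMP. Of the Lgals4 and Lgals8 probe sets 8 of 9 and 9 of 11 were higher in Dnmt3a-/- than in wild-type CMP, none by more than 1 log2 unit. In GMP 5 of 9 and 6 of 11 were higher. The Lgals4 differences there ran from -0.93 to 1.51, with 1 above 1 log2 unit, so the gene mean averages probe sets that disagree. Those of Lgals8 ran from -0.64 to 0.85.

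Whether a probe set departed from the others of its gene is not used by the choice of members and was tested. With limma's diffSplice, which pools the spread over a gene, 0 of the 43 probe sets passed the threshold for Dnmt3a-/- against wild-type CMP, 1 for GMP and 0 for wild-type GMP against CMP, where 0.17%, 0.419% and 0.303% of all probe sets passed (unadjusted p under 0.05 for 2, 6 and 3 of the 43). The 1 was the dimmest Lgals3 probe set, with a deviation of -1.36 (adjusted p = 0.0289), and it lost its call without wild-type GMP replicate 1, 2 or 4 or Dnmt3a-/- GMP replicate 1 or 3. With the spread of each probe set taken by itself, a fit added after the data were seen, 0 of the 43 passed in each comparison (limma, lowest adjusted p = 0.584, 0.329 and 0.581), against 0.00348%, 0.00556% and 0.00834% of all probe sets; 5, 5 and 3 of the 43 had an unadjusted p under 0.05. On simulated arrays diffSplice called mostly unchanged probe sets, so its single call is not used further.

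**Figure D3:**
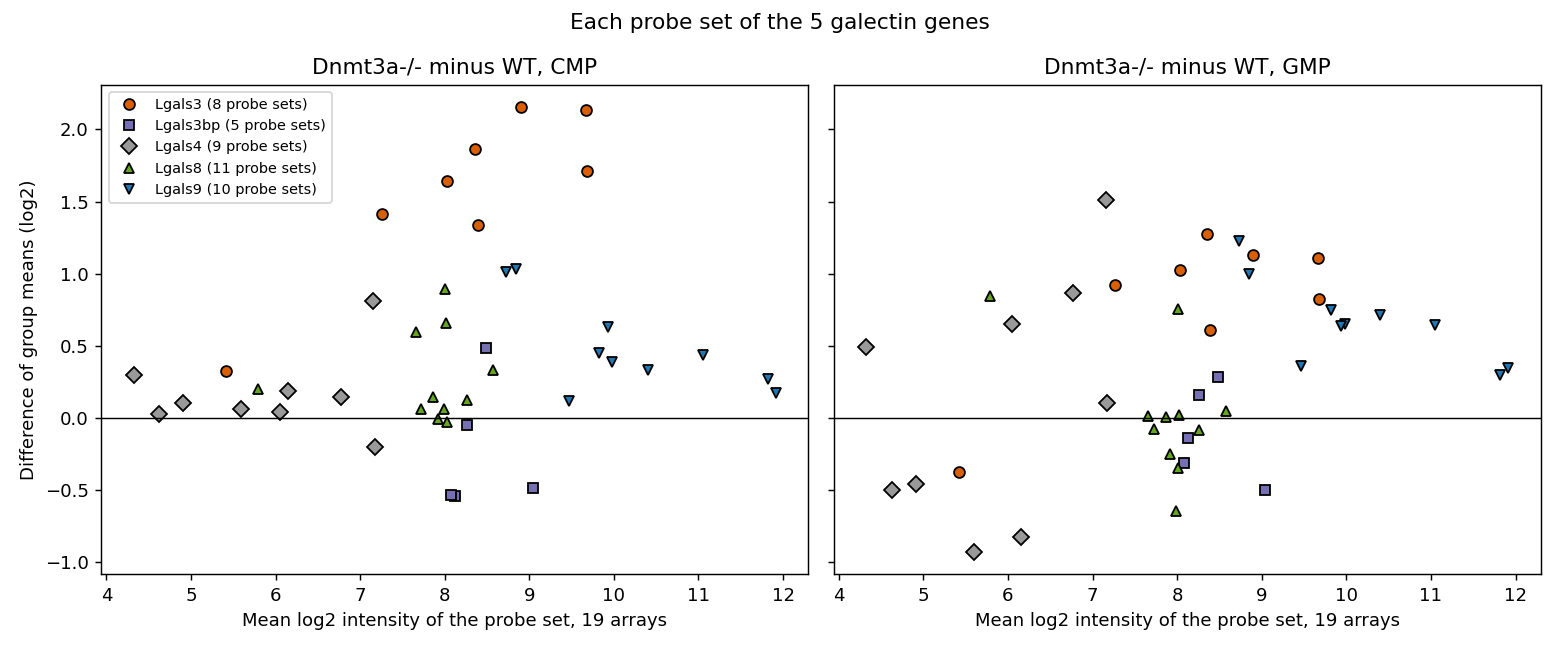
Each of the 43 galectin probe sets by its mean log2 intensity over the 19 arrays (horizontal axis) and the difference of group means between Dnmt3a-/- and wild-type (vertical axis), for CMP on the left and GMP on the right. The Lgals3 probe sets lie highest in CMP apart from the dimmest one, and the 10 of Lgals9 are above 0 in both panels.

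Markers of other cell types moved beside Lgals3. The mean level of 17 secondary granule and neutrophil genes was 8.10 to 9.11 in PR+/- Dnmt3a-/- GMP, 9.30 to 9.38 in PR+/- GMP, 9.33 to 10.24 in Dnmt3a-/- GMP, 8.27 to 8.56 in wild-type GMP, 8.92 to 10.33 in Dnmt3a-/- CMP and 7.94 to 8.33 in wild-type CMP. In Dnmt3a-/- CMP 5 of the 17 were called higher and none lower (median difference 1.37), and in Dnmt3a-/- GMP likewise 5 (1.20), where 1.28% and 1.33% of all genes were called in either direction. Its defining genes, the granule proteins Ltf, Camp and Ngp, had mean levels of 9.17, 11.40 and 11.04 in Dnmt3a-/- CMP, against 7.53, 9.90 and 9.54 in wild-type CMP, and none of the 17 was below background in any group.

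The same held within the PR+/- Dnmt3a-/- group. Its replicates 1 and 2, with Lgals3 at 7.65 and 7.36, had neutrophil list levels of 8.10 and 8.27, while replicates 3 and 4, with Lgals3 at 8.23 and 8.60, had 9.11 and 9.04. Immediate early levels split these arrays the same way, 9.01 and 8.83 against 6.04 and 6.15, so the lists cannot be told apart here. In PR+/- GMP Lgals3 was 9.08 and 8.26 at nearly equal neutrophil list levels of 9.38 and 9.30. The parallel did not hold within Dnmt3a-/- CMP, where replicate 3 had the highest Lgals3, 9.28, at the lowest list level, 8.92. The 24 monocyte and macrophage genes averaged 6.22 to 6.39 in Dnmt3a-/- CMP, against 6.19 to 6.59 in wild-type CMP, over members that went both ways: 1 was called higher and 3 lower in CMP, and as many in GMP. Lyz2 stood at 10.57 in Dnmt3a-/- CMP, against 9.40 in wild-type CMP, and Csf1r, the receptor of macrophage colony-stimulating factor, at 6.42, against 8.13. The part of granulocytic cells or RNA in the Lgals3 differences was not tested. The list was 1 of 7 set against the members after the data were seen.

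**Figure D4:**
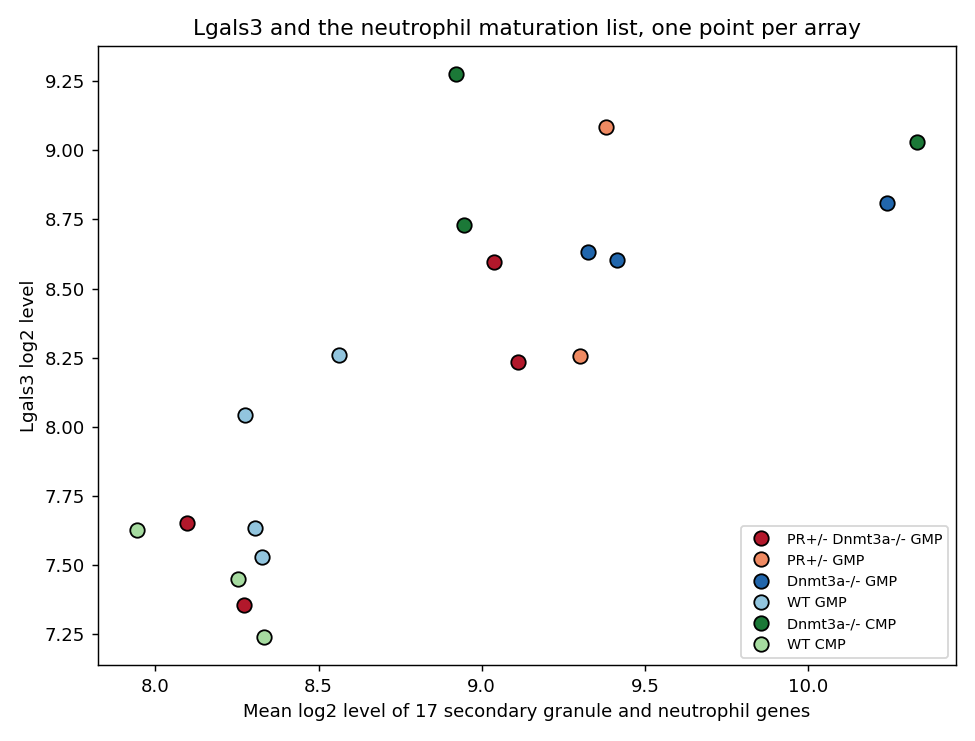
Lgals3 log2 level (vertical axis) against the mean log2 level of 17 secondary granule and neutrophil genes (horizontal axis), 1 point per array, coloured by group. The Dnmt3a-/- arrays without PR lie at 8.92 to 10.33 on the list and at 8.60 to 9.28 for Lgals3, and the wild-type arrays at 7.94 to 8.56 and at 7.24 to 8.26. The PR+/- Dnmt3a-/- arrays lie at 8.10 to 9.11 and at 7.36 to 8.597. The PR+/- arrays lie at 9.30 to 9.38 and at 8.26 to 9.08.

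Beside Lgals9, 2 of the 7 lists set against the members are described here, the dendritic and the megakaryocyte lists. Across the 19 arrays, which share group structure, Lgals9 correlated with them at r = 0.65 and 0.73, and with the monocyte and macrophage list at -0.68. The mean level of 15 dendritic cell genes was 7.26 to 7.74 in Dnmt3a-/- CMP, against 6.01 to 6.45 in wild-type CMP, and 5.79 to 6.02 in Dnmt3a-/- GMP, against 4.93 to 5.28 in wild-type GMP; 7 of the 15 were called higher in CMP and 4 in GMP. The 16 megakaryocyte and platelet genes gave 7.70 to 7.98 in Dnmt3a-/- CMP, against 6.32 to 6.62 in wild-type CMP, and 5.80 to 6.42 in Dnmt3a-/- GMP, against 4.997 to 5.66 in wild-type GMP, with 6 and 3 called higher. Of all genes, 1.28% in CMP and 1.33% in GMP were called in either direction. On the PR+/- background the Lgals9 difference of 0.46 stood beside flat lists: the dendritic genes averaged 4.97 to 5.26 in PR+/- Dnmt3a-/- GMP, against 4.87 to 5.24 in PR+/- GMP, and the megakaryocyte genes 5.47 to 5.66, against 5.47 to 5.51. The dendritic genes Cd74, H2-Aa and H2-Ab1 stood at 10.71, 10.80 and 10.26 in Dnmt3a-/- CMP, against 7.64, 7.95 and 7.20 in wild-type CMP, and no gene of this list was below background in a wild-type or Dnmt3a-/- group. The part of such cells in the Lgals9 differences was not tested.

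By Pearson correlation of log2 levels over the 19 arrays, which share group structure and arrays, the genes most like Lgals3 among 13356 above background were Rab11a (r = 0.885), Itgb2 (0.876), S100a8 (0.852), Dpm2 (0.851) and Vamp8 (0.849). Itgb2 is the beta chain of the leukocyte integrins, Rab11a a small GTPase of recycling endosomes, Vamp8 a vesicle SNARE and S100a8 a calcium-binding protein of neutrophils that is also on the neutrophil list. Those most like Lgals9 were Samsn1 (0.900), Cxxc5 (0.880), Ptpn12 (0.880), Pcdh7 (0.877) and Syf2 (0.874), among them an adaptor of haematopoietic cells, Samsn1, and a tyrosine phosphatase, Ptpn12. The members were less like each other: r was 0.33 for Lgals3 with Lgals9, 0.44 for Lgals9 with Lgals3bp and -0.24 for Lgals3 with Lgals3bp.

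Of 6 other galectin genes listed, Lgals2, Lgals7, Lgals12 and Lgalsl were measured, and 0 of these 4 was called in any of the 5 comparisons (limma; 1, 1, 1, 2 and 1 of the 4 had an unadjusted p under 0.05). Lgals12, a galectin of adipocytes, was below background in all 6 groups (2.78 to 3.13), and Lgals2 close to it (3.33 to 3.51). Lgals7, known from stratified epithelia, had 6.00 ± 0.53 (SD, n = 3) in Dnmt3a-/- CMP and 4.85 ± 0.17 (n = 3) in wild-type CMP, a difference of 1.16 ± 0.27 (SE) that did not pass the threshold (limma adjusted p = 0.0558). The galectin-like gene Lgalsl had 5.59 ± 0.34 (n = 2) in PR+/- GMP and 6.66 ± 0.30 (n = 4) in wild-type GMP, a difference of -1.07 ± 0.29 (adjusted p = 0.0639).

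The partners of galectins were read from 106 measured genes in 6 lists: the other galectins, enzymes that build N-glycan branches and lactosamine (the galactose-bearing chains galectins bind), enzymes of O-glycan cores, enzymes that cap chains with sialic acid or fucose, glycoproteins known as galectin counter-receptors, and genes of the response to damaged lysosomes. The test was limma with Benjamini-Hochberg adjustment over all 15781 genes.

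Without Dnmt3a, CMP showed 4 changed genes among the 106, and 1.28% of all genes changed. Gcnt2, the enzyme that branches lactosamine chains, rose by 0.83 ± 0.17 (SE; adjusted p = 0.036): it had 8.24, 8.34 and 7.97 in Dnmt3a-/- CMP, against 7.64, 7.24 and 7.18 in wild-type CMP. The integrin alpha chain Itga6 rose by 0.54 ± 0.12 (adjusted p = 0.0403) and Rraga, a GTPase that ties mTORC1 to the lysosome, by 0.97 ± 0.21 (adjusted p = 0.0421). B4galt6, a galactosyltransferase of glycolipids, fell to 5.83, 5.21 and 5.84 in Dnmt3a-/- CMP, against 6.44, 8.08 and 8.23 in wild-type CMP, a difference of -1.96 ± 0.37 (adjusted p = 0.0231). By list, 1 of the 22 genes listed for N-glycans and lactosamine fell, the glycolipid enzyme B4galt6. Of the O-glycan genes 1 of 11 rose, as did 1 of 28 counter-receptor and 1 of 18 lysosome genes. Of 23 capping genes 0 passed (3 at an unadjusted p under 0.05). The median difference of the 106 genes was 0.02, and that of all genes -0.04. The count depended on single arrays: it was 1 without wild-type CMP replicate 2 or Dnmt3a-/- CMP replicate 2, and 0 without wild-type CMP replicate 3 or Dnmt3a-/- CMP replicate 1 or 3.

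In GMP, 2 of the 106 genes rose without Dnmt3a and none fell, where 1.33% of all genes changed. Thy1, a surface glycoprotein on the counter-receptor list, had 7.02, 6.61 and 6.72 in Dnmt3a-/- GMP, against 5.61, 5.50, 5.16 and 5.11 in wild-type GMP. It rose by 1.44 ± 0.19 (SE; adjusted p = 0.00278), and its call held in all 17 alternatives run. Galnt3, which starts O-glycans, rose by 1.12 ± 0.24 (adjusted p = 0.0402), with 6.33, 6.31 and 6.10 in Dnmt3a-/- GMP, against 4.73, 4.92, 5.56 and 5.30 in wild-type GMP. Its call was lost in 11 of 17 alternatives. Without wild-type GMP replicate 2 or 4 or any 1 Dnmt3a-/- GMP array only 1 gene was called. The median difference of the 106 genes was 0.08, and that of all genes -0.07. The Dnmt3a-/- difference did not pass a test between CMP and GMP for any of the 106 genes (0 called, 16 at an unadjusted p under 0.05).

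Wild-type GMP differed from wild-type CMP in 14 of the 106 genes, 6 higher and 8 lower, where 4.3% of all genes changed. Among the O-glycan genes C1galt1c1, the chaperone of the core 1 synthase, was higher: it had 8.77, 8.90, 9.41 and 9.30 in wild-type GMP, against 7.04, 7.92 and 7.70 in wild-type CMP (1.54 ± 0.22, adjusted p = 0.00184). Gcnt2 was lower in every GMP array than in any CMP array, by -1.24 ± 0.16 (adjusted p = 0.00116), and Galnt6 by -0.56 ± 0.13 (adjusted p = 0.0228). C1galt1c1 and Gcnt2 held in all 16 alternatives run. B4galt6 was higher by 1.63 ± 0.35 (adjusted p = 0.0168).

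The capping genes that changed were all lower in wild-type GMP than in wild-type CMP: St8sia6 (-1.44), Cmah (-1.09) and St6galnac3 (-0.93), 3 of 23, with limma adjusted p of 0.0248, 0.0478 and 0.00751. The call was lost in 6 of 16 alternatives for St8sia6, in 12 for Cmah and in 2 for St6galnac3. Of 28 counter-receptors 2 were lower and 4 higher: the myeloid receptor Trem2 (1.003, limma adjusted p = 0.0115), the protein disulfide isomerase P4hb (0.68, adjusted p = 0.0387) and, outside the naming rule, the lysosomal membrane glycoproteins Lamp1 and Lamp2. The lower ones were Cd7 (-1.30, adjusted p = 0.000686), a receptor of galectin-1 on T cells, and Havcr2, the galectin-9 receptor. Havcr2 was dim, with 2.78 in wild-type GMP, below background, and 3.61 in wild-type CMP (adjusted p = 0.00635), so no fold is given. Ulk1, an autophagy kinase on the lysosome list, was lower by -0.72 ± 0.13 (adjusted p = 0.0063). Of the other calls in this comparison Galnt6 was lost in 7 of the 16 alternatives, P4hb in 8 and Lamp1 and Lamp2 in 9 each. With the brighter probe sets alone the difference was -0.57 for Cd7 and -0.88 for St8sia6 (limma adjusted p = 0.227 and 0.107). That of Ulk1 was -0.45 with the median of probe sets (adjusted p = 0.309), and that of B4galt6 was 1.06 without wild-type CMP replicate 1 (adjusted p = 0.0218). The median difference was 0.03 for the 106 genes and 0.04 for all genes. The count was 7 without wild-type CMP replicate 1, 7 without wild-type GMP replicate 3 and 9 without wild-type GMP replicate 4.

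On the PR+/- background, 0 of the 106 genes passed between PR+/- Dnmt3a-/- and PR+/- GMP, as did 0% of all genes (limma, 6 arrays; 12 of the 106 and 1256 of all genes had an unadjusted p under 0.05, and the fit of all 19 arrays called 0 of the 106). Dnmt3a itself was among the genes not called, at a mean of 6.09 in PR+/- Dnmt3a-/- GMP and 7.13 in PR+/- GMP. This test of 6 arrays thus missed the deleted gene, and its lack of calls does not show a lack of change. The median differences were -0.07 for the 106 genes and -0.03 for all genes. The test of the Dnmt3a-/- difference between the backgrounds with and without PR+/- also called 0 of the 106 (22 at an unadjusted p under 0.05).

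PR+/- GMP differed from wild-type GMP in 10 of the 106 genes, 8 higher and 2 lower, where 3.07% of all genes changed. Thy1 had 10.87 and 9.60 in PR+/- GMP, against 5.61, 5.50, 5.16 and 5.11 in wild-type GMP, a rise of 4.89 ± 0.37 (SE; adjusted p = 4.83e-05). Its level in PR+/- Dnmt3a-/- GMP was 9.77, 8.91, 9.39 and 10.36. St6gal1, which adds the alpha-2,6-linked sialic acid that blocks many galectins, had 6.17 and 6.29 in PR+/- GMP, against 4.40, 3.85, 4.16 and 4.39 in wild-type GMP (2.03 ± 0.29, adjusted p = 0.00308). The O-glycan starters Galnt6 and Galnt3 rose by 1.61 ± 0.24 (adjusted p = 0.00308) and 1.51 ± 0.20 (adjusted p = 0.00162).

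Among the 22 genes listed for N-glycans and lactosamine, the core fucosyltransferase Fut8 was higher in PR+/- GMP than in wild-type GMP by 1.19 ± 0.17 (limma adjusted p = 0.00287). So were B4galt5 (0.82 ± 0.17, adjusted p = 0.0194) and the chain builder B3gnt7 (0.69 ± 0.17, adjusted p = 0.0433). B4galt4 was lower (-0.96 ± 0.21, adjusted p = 0.0301). The sialyltransferase St6galnac3 was higher (0.79 ± 0.19, adjusted p = 0.0433), and the hyaluronan receptor Cd44 lower (-0.88 ± 0.20, adjusted p = 0.0342). The B3gnt7 difference was -0.02 with the median of its probe sets (limma adjusted p = 0.988) and 0.24 with its brighter probe sets alone (adjusted p = 0.574). The call was lost in 10 of 15 alternatives for B3gnt7, in 10 for St6galnac3, in 8 each for B4galt4 and Cd44 and in 5 for B4galt5. St6galnac3 differed by 1.27 with the median of probe sets (limma adjusted p = 0.0361), and B4galt4 by -0.57 without PR+/- replicate 1 (adjusted p = 0.477). The median difference was 0.29 for the N-glycan list, 0.11 for the 106 genes and 0.0025 for all genes. Without PR+/- replicate 1 only Thy1 was called. Marker lists moved here too: 5 of 14 basophil and mast cell genes, 3 of 16 megakaryocyte genes and 2 of 17 neutrophil genes were called higher, and of 24 monocyte and macrophage genes 1 was called higher and 4 lower. The basophil and mast cell level was 7.30 to 7.39 in PR+/- GMP, against 6.17 to 6.59 in wild-type GMP. The part of such cells in the differences between PR+/- and wild-type GMP was not tested. These lists were drawn up with earlier results of these data known.

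**Figure D5:**
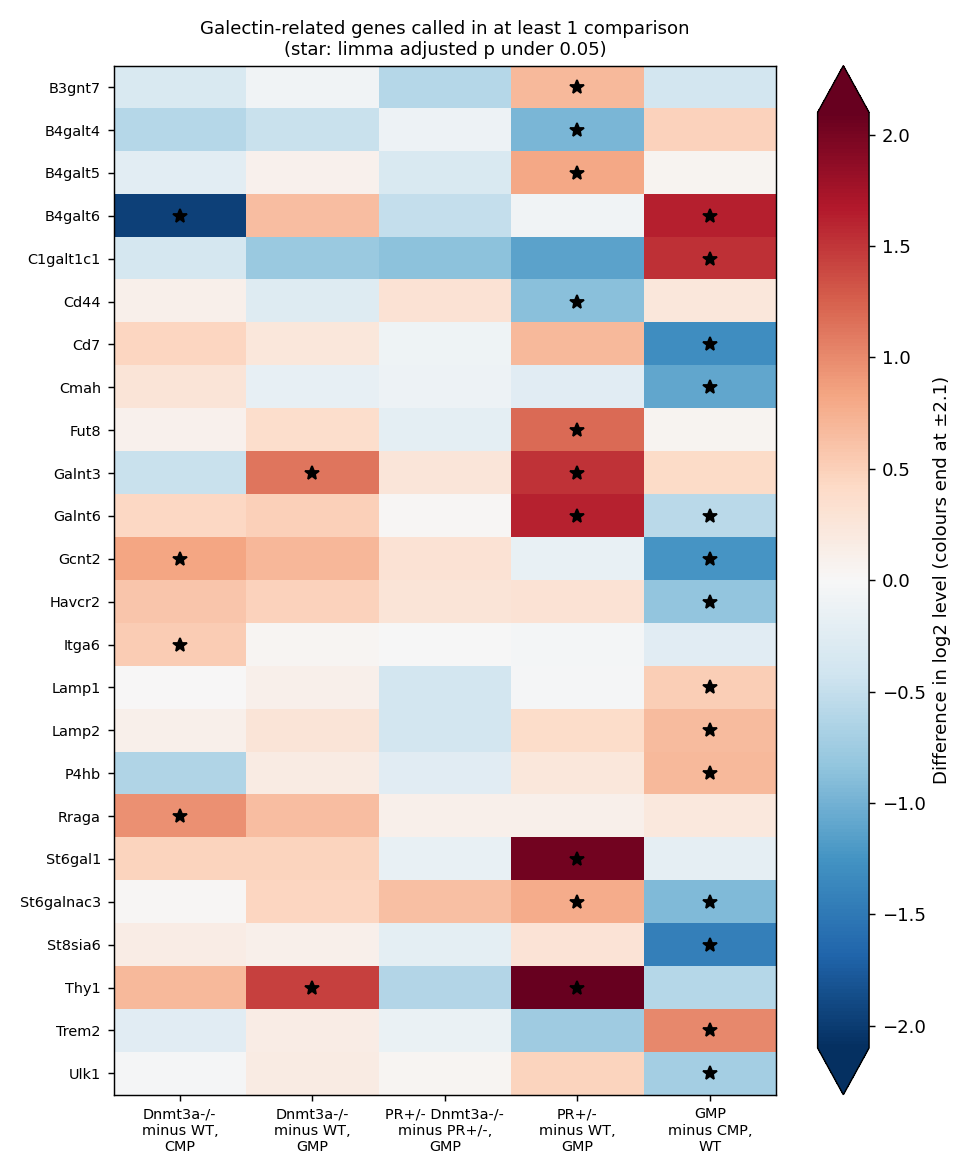
Difference in log2 level (colour, ending at ±2.1) of the 24 galectin-related genes called in at least 1 comparison, with the 5 comparisons along the horizontal axis and a star where the limma adjusted p was under 0.05. The Thy1 difference of 4.89 in PR+/- GMP exceeds the colour range, and no star stands in the third column, PR+/- Dnmt3a-/- minus PR+/-.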

How the data were processed

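The deposited table gives a linear intensity for each exon-level probe set on each array, made by the authors. The submitters' processing notes name RMA, Partek and mm9 but no role or version for them. Values ran from 1.34 to 16208 and array medians from 53.0 to 56.8, so no further normalisation was applied. Log2 was taken, and a gene's level was the mean over probe sets with that symbol only (179496 of 194293 probe sets, with 1328 carrying several symbols and 13469 none). Symbols were updated through a GRCm38.p6 table, for names only.

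Groups were compared with limma 3.58.1 (lmFit, eBayes, two-sided) in R 4.3.3: 13 wild-type and Dnmt3a-/- arrays in 1 fit, the 6 PR+/- arrays, or the 13 GMP arrays for PR+/- against wild-type, with Benjamini-Hochberg adjustment over 15781 genes at 0.05. Probe sets were tested for 12752 genes with at least 3. The fits were tested on simulated data. Precision is limited by the number of arrays. The members and lists were chosen with earlier results of these data known. Named from each related list were up to 4 called genes of largest difference per comparison. Both PR+/- groups have replicates numbered 1 and 2, with no label that calls them pairs. A p-value here covers the spread among these samples, which may be technical. Comparisons with wild-type or PR+/- groups share those arrays.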

Additional observations from a re-analysis of the deposited data

Results flagged for a closer look

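Among 10 groups of 4 arrays examined, 2 groups for each of the 5 measured members, 1 held a lone array. Lgals4 in PR+/- Dnmt3a-/- GMP stood at 5.36 on replicate 2, against 6.03, 6.02 and 6.09 on replicates 1, 3 and 4, a gap of 0.906 of the whole range of the group. Chance flags about 1 in 20 groups. The cause was not tested.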

How the results depend on the processing

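The alternatives changed how many of the 106 galectin-related genes passed more than which way they moved, and no galectin member changed sign past its spread. Of the galectin-related genes named, B3gnt7 changed sign, to -0.02 with the median of probe sets for PR+/- against wild-type GMP. The causes were not tested. For Dnmt3a-/- against wild-type CMP the count of 4 became 1 with the median of probe sets, 18 with array weights, 1 with the Y-linked level as covariate, 11 without the arrays high in immediate early genes and 0 with only the 2 groups compared, and leaving out single arrays gave 0 to 6. For Dnmt3a-/- against wild-type GMP the count of 2 became 1 with the median, 4 with a filter on dim genes, 13 with array weights, 4 with all 19 arrays in 1 fit, 1 with the Y-linked covariate, 4 without the arrays high in immediate early genes and 1 with only the 2 groups, and single arrays gave 1 to 3. For wild-type GMP against CMP the 14 became 8 with the median, 5 without the arrays high in immediate early genes and 7 with only the 2 groups, and single arrays gave 7 to 15. For PR+/- against wild-type GMP the 10 became 6 with the median, 21 with array weights, 17 with all 19 arrays, 6 with the Y-linked covariate and 6 with only the 2 groups, and single arrays gave 1 to 8. For PR+/- Dnmt3a-/- against PR+/- GMP the count stayed at 0 in every alternative run, and with the replicate block it was 0; arrays that share a replicate number there correlated with r = 0.0774 and 0.0169, so the numbers were not taken as pairs. Dnmt3a-/- CMP and GMP arrays with adjacent title numbers correlated with 0.121, 0.139 and 0.171 and were fitted as a random block.

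Of the 43 galectin probe sets, those called by diffSplice in CMP (0) became 1 with only the 2 groups and 2 without the arrays high in immediate early genes, with 0 to 1 for single arrays. In GMP the 1 became 0 with only the 2 groups, 4 without the arrays high in immediate early genes, none of them that probe set, and 0 with each probe set's own spread, with 0 to 1 for single arrays. For wild-type GMP against CMP the count was 0 in all settings run. The Lgals3 difference ranged over the alternatives from 1.44 to 1.83 in CMP and 0.70 to 1.05 in GMP, and that of Lgals9 from 0.28 to 0.83 and 0.53 to 1.05.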
